A study of Mus musculus with 56 samples.

Results

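The carriers described here are 53 mouse genes for proteins that move sodium, chloride, bicarbonate or phosphate across cell membranes. They were chosen by symbol alone, as all genes named Slc4a, Slc5a, Slc9a, Slc12a, Slc26a or Slc34a followed by a number, and the rule itself uses no measured value. The rule took 53 of the 53379 genes in the count table, with 10 from the Slc4a family, 11 from Slc5a, 9 from Slc9a, 9 from Slc12a, 11 from Slc26a and 3 from Slc34a. The data are RNA-seq read counts of 7 regions of the male reproductive tract of C57BL/6 mice, an inbred laboratory strain, at 3 months and at 21 months of age, with 4 libraries for each region and age (56 in all). In the order in which sperm pass them, the regions are testis, efferent ductules, initial segment, then caput, corpus and cauda epididymidis, and last the vas deferens. No group carried an engineered allele or a treatment according to the labels. The methods state that 4 mice of each age gave all 7 regions, with the organs of both sides of a mouse dissected together.

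Sperm leave the testis in a large volume of fluid, and most of that fluid is taken up again in the efferent ductules, where the sodium-hydrogen exchanger Slc9a3 and chloride-bicarbonate exchange at the apical membrane draw sodium, chloride and water out of the lumen. Along the epididymis the lumen becomes acidic and poor in bicarbonate, which keeps stored sperm quiescent, and bicarbonate later activates them through a soluble adenylyl cyclase. The Slc4a, Slc9a, Slc12a and Slc26a proteins exchange or cotransport these ions, the Slc34a proteins bring phosphate into the cell with sodium, and the Slc5a proteins use the sodium gradient to take up sugars, myo-inositol, vitamins, iodide or monocarboxylates. They are driven by the sodium-potassium ATPase.

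Promoter sequences are shown for 4 carriers of different families or regions whose levels are described below, so that the later values can be read beside them. They span 250 bases before to 50 bases after the RefSeq gene start (build GRCm38.p6), a start that can lie inside the longer gene model used for the counts. Capitals mark matches to short promoter motifs on either strand. The TATA box is the letters TATAAA. The GC box was searched for as GGGCGG, and the CCAAT box by the letters of its name. Slc9a3 lies on the plus strand (chr13:74121163-74121462), its window is 68.7% G or C, and it holds 3 GC boxes.
Slc9a3: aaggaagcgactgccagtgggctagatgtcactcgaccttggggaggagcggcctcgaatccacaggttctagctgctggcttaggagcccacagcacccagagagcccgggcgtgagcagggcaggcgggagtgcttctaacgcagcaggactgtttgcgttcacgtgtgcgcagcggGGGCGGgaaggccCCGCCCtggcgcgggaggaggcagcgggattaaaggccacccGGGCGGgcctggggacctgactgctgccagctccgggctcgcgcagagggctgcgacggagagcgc
Slc26a3, the chloride-bicarbonate exchanger that absorbs chloride in the colon, is on the plus strand (chr12:31437969-31438268) and has a window with 39.3% G or C, a TATA box 30 bases before the start and 2 CCAAT boxes.
Slc26a3: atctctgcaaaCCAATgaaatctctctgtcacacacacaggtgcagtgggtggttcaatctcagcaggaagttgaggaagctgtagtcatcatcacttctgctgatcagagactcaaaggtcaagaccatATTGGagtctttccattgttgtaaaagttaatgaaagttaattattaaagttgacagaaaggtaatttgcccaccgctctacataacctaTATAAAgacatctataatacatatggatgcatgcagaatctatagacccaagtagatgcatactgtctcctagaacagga
Slc34a1, the phosphate carrier of the kidney proximal tubule, is on the plus strand (chr13:55399398-55399697), with 46.7% G or C and 1 TATA box, which starts 16 bases after the gene start.
Slc34a1: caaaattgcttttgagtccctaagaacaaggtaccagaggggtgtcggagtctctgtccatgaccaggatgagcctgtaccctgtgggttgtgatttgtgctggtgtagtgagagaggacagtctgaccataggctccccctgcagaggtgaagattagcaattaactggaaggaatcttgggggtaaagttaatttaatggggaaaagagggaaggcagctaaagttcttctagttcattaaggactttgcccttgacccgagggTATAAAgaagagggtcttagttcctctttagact
Slc26a8, an anion carrier of male germ cells, is on the minus strand (chr17:28689938-28690237), with 44.7% G or C and 1 CCAAT box.
Slc26a8: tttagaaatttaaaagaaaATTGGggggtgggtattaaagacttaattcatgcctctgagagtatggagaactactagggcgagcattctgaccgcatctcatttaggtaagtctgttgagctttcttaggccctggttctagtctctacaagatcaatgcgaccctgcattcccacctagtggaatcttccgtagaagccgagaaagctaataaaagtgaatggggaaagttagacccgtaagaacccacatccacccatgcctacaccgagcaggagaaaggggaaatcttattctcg
Of the 53 carriers, 38 had an entry in the promoter table. A TATA box was in 10 of these 38 (26.3%), against 14.2% of all 27025 promoters of the same length. A GC box was in 20 (52.6%, against 35.9% of all) and a CCAAT box in 14 (36.8%, against 37.9%). Among the 10 entries of carriers specific to the efferent ductules, by the criterion given below, 4 held a TATA box and 3 a GC box, and among the 8 entries of testis-specific carriers the counts were 3 and 3. These matches are descriptions of the letters, not of factor binding.

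Between 11125279 and 20561967 reads were counted on genes per library, with a median of 16384049. The 13 marker genes chosen for the regions each had their highest mean in the region of their label, among them Prm1 for the testis, Lrp2 for the efferent ductules, Adam28 for the initial segment and Akr1b7 for the vas deferens. Some libraries stood apart. In the second caput library of the 3-month-old mice Gm42418 took 49.7% of the counts, against 6.54 to 9.49% in the other 3. The third efferent ductule library of that age had a summed level of 6 germ cell markers of 94.1 CPM, against 24.2 to 25.6 CPM in the other 3. The third cauda library had macrophage markers at 931 CPM against 141 to 153 CPM, with all 4 genes of that list higher. Of the clear cell markers it was higher in Atp6v0d2 (199.6 CPM against 34.3 to 38.4 CPM) and slightly lower in the other 3 (Foxi1, Atp6v1b1 and Atp6v1g3). Lrp2, an endocytic receptor also abundant in the cauda, was at 1002 CPM against 1761 to 1828 CPM. At 21 months, the second and the third efferent ductule libraries held initial segment markers at 637 and 263 CPM, against 2.58 and 2.92 CPM in the other 2. These are whole pieces of tissue, so fewer cells of a type and less RNA per cell cannot be told apart in any value given here. The labels do not say which libraries came from 1 mouse, and p-values measure the spread between these libraries.

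Levels in the 3-month-old mice are CPM (a gene's counts relative to the library total) after TMM scaling of the 28 libraries of that age. At this age 42 of the 53 carriers reached a mean of 1 CPM in at least 1 region, 23 reached it in all 7, and 11 stayed under it everywhere. Summed over the 53 genes, the efferent ductules held the most carrier RNA, with a mean of 2015 CPM (1945 to 2055 CPM over the 4 libraries). The initial segment followed with 1480.1 CPM, and the testis had the least with 1073 CPM (1035 to 1107 CPM). The highest mean of a carrier was in the efferent ductules for 15 genes, in the testis for 13, in the vas deferens for 7, in the caput for 6, in the cauda for 5, in the initial segment for 4 and in the corpus for 3. Levels of 50 of the 53 genes by library are in the heat map.

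**Figure D1:**
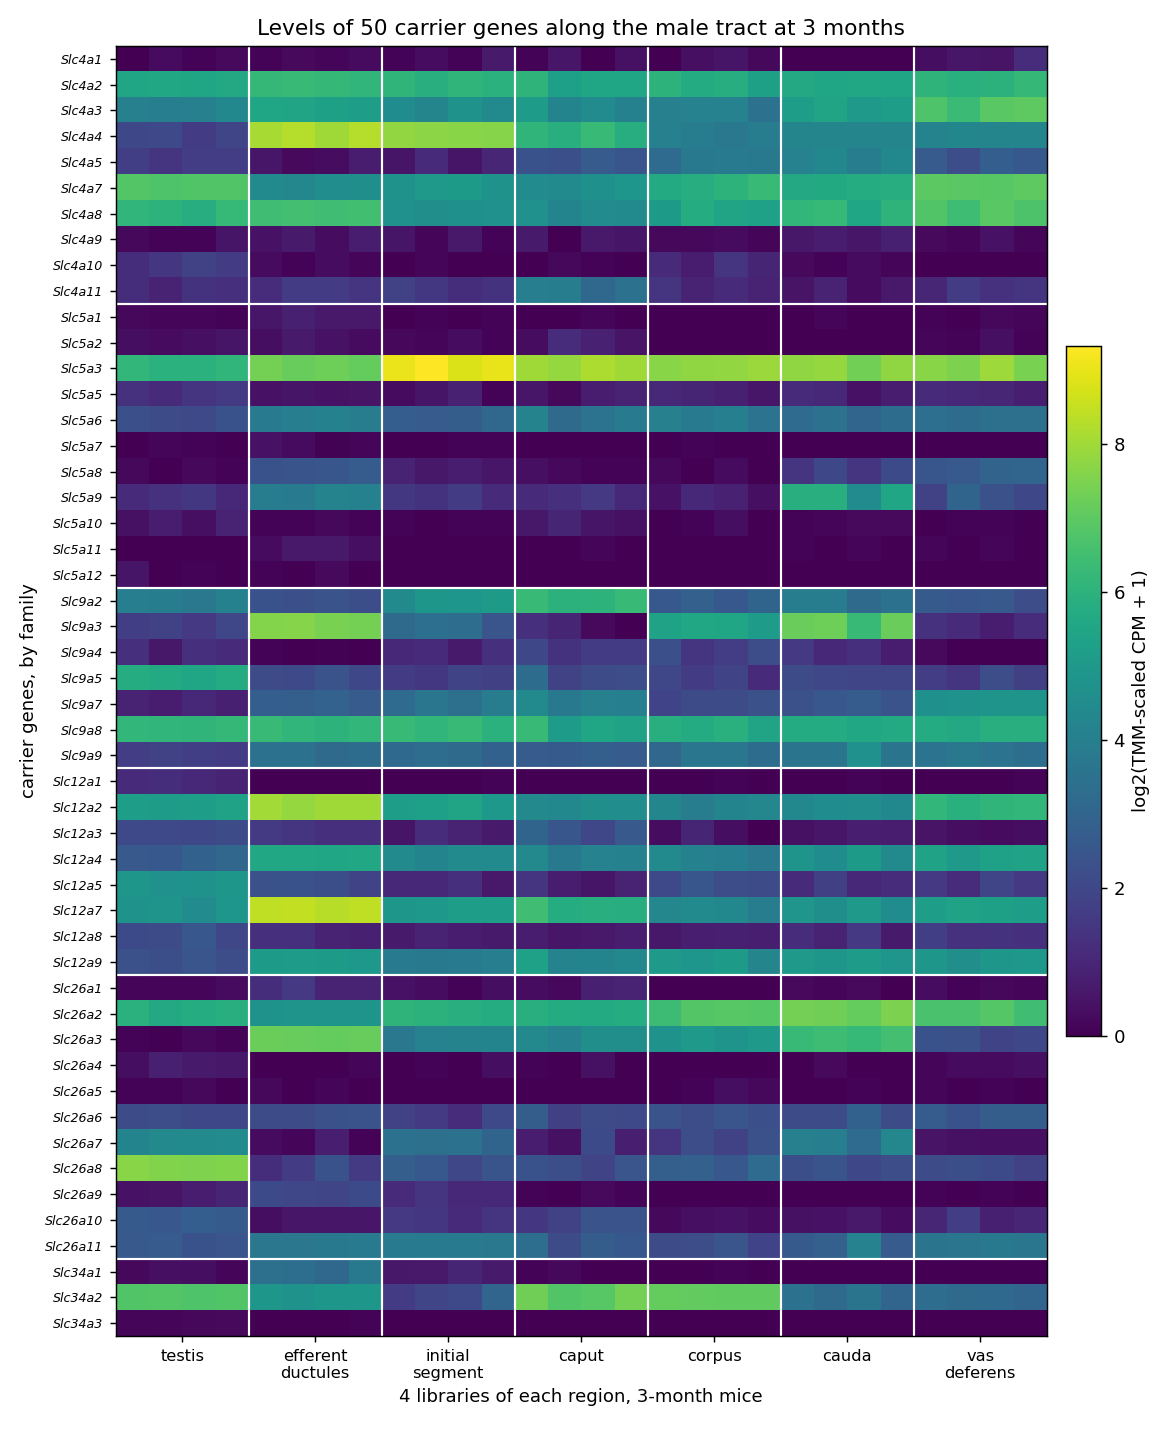
Heat map of 50 of the 53 carriers (rows, grouped by family) in the 28 libraries of 3-month-old mice (columns, 4 per region from the testis to the vas deferens), coloured by log2 of the TMM-scaled CPM plus a pseudocount of 1. Slc26a8 stands out in the 4 testis libraries, Slc9a3 in the efferent ductules, corpus and cauda, and Slc5a3 in every region after the testis.

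To compare different genes, CPM was divided by the exon length in kilobases. In the testis the most abundant carriers on this scale were Slc26a8 with 39.9 ± 1.59 CPM per kb (mean ± SD, n = 4, as for all means below) and Slc34a2 with 22.0. In the efferent ductules they were Slc9a3 with 33.2 ± 2.69, Slc12a7 with 27.0 and Slc4a4 with 26.7 CPM per kb. The initial segment was led by Slc5a3, the carrier of the osmolyte myo-inositol, with 49.2 ± 7.22 CPM per kb, and Slc4a4 had 19.2 CPM per kb. In the caput Slc34a2 had 27.6 ± 5.42 and Slc5a3 23.7 CPM per kb. Slc5a3 was among the 3 most abundant carriers in the 5 regions from the initial segment to the vas deferens. Exons of Slc5a3 overlap Mrps6 and Gm49711 on the same strand, so its counts are uncertain.

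A carrier was taken as specific to a region where its mean CPM reached 4-fold the average of the remaining 6 regions and the adjusted p was under 0.05, in one fit of the 28 libraries. For each gene that fit shares a spread over all regions, and the pairs of regions compared below use this shared spread. This ratio is of arithmetic means, whereas the log2 difference printed with it is the fitted one between the region and the average of the log2 levels of the other 6, which weighs low regions more. By this criterion 31 of the 53 carriers were specific to a region and 22 to none. The testis had 10, where 28.2% of all 34475 genes tested were testis-specific. The efferent ductules had 11, against 5.46% of all genes. The initial segment had 0, against 2.48%, also at an unadjusted p in edgeR and with DESeq2. The caput had 4 (background 3.42%), and corpus (2.7%), cauda (2.18%) and vas deferens (3.2%) had 2 each. The median log2 difference of the 53 carriers from the other regions was 0.46 in the efferent ductules, against -0.03 over all genes, and 0.30 in the testis, against 0.13. When the mean had to exceed each of the other 6 regions 4-fold in turn, 5 carriers were left in the testis (Slc9a5, Slc12a1, Slc12a5, Slc26a8 and Slc34a3), 4 in the efferent ductules (Slc5a1, Slc5a11, Slc12a7 and Slc34a1), 1 in the caput (Slc4a11) and 0 elsewhere. Of all 34475 genes tested, 7493 passed this stricter rule in the testis, 738 in the efferent ductules and 218 in the caput. Where 0 carriers were left, the counts over all genes were 269 (initial segment), 198 (corpus), 174 (cauda) and 291 (vas deferens). In 8 of the 31 calls the mean was under 1 CPM in the region itself.

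Among the sodium-hydrogen exchangers, Slc9a3 was high in separate stretches of the tract. The 4 efferent ductule libraries had 191, 198, 174 and 167 CPM, and the cauda libraries had 145, 152, 77.7 and 145 CPM. The corpus had 40.2, 46.4, 43.6 and 34.7 CPM, and the caput between them had 1.45, 0.964, 0.172 and 0 CPM. The initial segment had 8.31, 9.61, 9.04 and 4.55 CPM, and all libraries of the testis (1.94 to 2.93 CPM) and vas deferens (0.678 to 1.48 CPM) were below these. The efferent ductules were 5.98-fold the other regions' mean (log2 difference 4.82, SE 0.16, adjusted p = 1.744e-21). Their difference from the cauda did not pass in the fit (log2 difference 0.49, adjusted p = 0.0908), although every efferent ductule library was above every cauda library. The step from caput to corpus was 6.07 on the log2 scale (SE 0.38, adjusted p = 4.973e-14), and the cauda was 1.65 above the corpus (SE 0.24, adjusted p = 3.933e-06). The low cauda value of 77.7 CPM came from the third cauda library.

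Further sodium-hydrogen exchangers peaked in other regions. Slc9a2, an exchanger of epithelial cells, was specific to the caput, with 77.3, 62.2, 64.9 and 77.2 CPM against 21.0 to 32.7 CPM in the initial segment and at most 16.2 CPM elsewhere (6.14 times the other regions, log2 difference 2.97, SE 0.10, adjusted p = 6.6e-21). Slc9a5, best known from brain, was specific to the testis with 54.1, 50.6, 44.8 and 52.1 CPM, against at most 8.71 CPM in any other library (log2 difference 4.09, SE 0.15, adjusted p = 2.578e-21). Slc9a8, of the Golgi, was nearly level, with means from 49.4 CPM in the caput to 71.2 CPM in the initial segment. Slc9a4, the exchanger of stomach parietal cells, had means of 0.0253 to 2.85 CPM.

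The sodium-bicarbonate cotransporter Slc4a4, which moves bicarbonate and charge and works in proximal tubule and pancreas, was highest in the efferent ductules with 273, 316, 252 and 314 CPM. The initial segment came next with 223, 207, 201 and 199 CPM, and the caput with 68.0, 56.4, 76.5 and 54.5 CPM. The corpus, cauda and vas deferens had 12.2 to 18.2 CPM, and the testis 2.10 to 3.19 CPM. The efferent ductules were 5.35 times the mean of the others (log2 difference 3.62, SE 0.06, adjusted p = 1.881e-27) and 0.48 above the initial segment on the log2 scale (SE 0.10, adjusted p = 2.783e-04). From the initial segment to the caput Slc4a4 fell by 1.70 (SE 0.11, adjusted p = 1.669e-13), and from caput to corpus it fell by 2.19 (SE 0.11, adjusted p = 7.857e-16).

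Other carriers of bicarbonate peaked at the opposite end. Slc4a3, a chloride-bicarbonate exchanger of excitable tissues, was specific to the vas deferens with 109, 81.5, 122 and 127 CPM, against 10.3 to 43.5 CPM in all other libraries (ratio 4.32, log2 difference 2.21, SE 0.12, adjusted p = 2.728e-16). Its ratio fell under 4 without replicate 4 (log2 difference 1.997, adjusted p = 9.806e-12). Slc4a7, an electroneutral sodium-bicarbonate cotransporter, had 118 to 129 CPM in the vas deferens and 108 to 112 CPM in the testis, with 19.1 to 76.3 CPM in the regions between. Slc4a8, a sodium-driven chloride-bicarbonate exchanger, had means of 105 CPM in the vas deferens and 89.5 CPM in the efferent ductules, which did not differ beyond the spread (adjusted p = 0.2023), and its lowest mean was 21.2 CPM in the caput. Slc4a5, an electrogenic cotransporter, was specific to the cauda with 16.7, 19.5, 13.98 and 19.2 CPM (ratio 4.25, log2 difference 2.88, SE 0.15, adjusted p = 3.365e-16). All corpus libraries (8.59 to 13.4 CPM) were below those of the cauda, but this difference did not pass in the fit (adjusted p = 0.0564). The ratio of Slc4a5 fell under 4 without replicate 2 (log2 difference 2.74, adjusted p = 7.579e-12).

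Slc4a11, an atypical member of its family, was the caput-specific carrier that also passed against each region in turn, with 14.9, 14.6, 7.75 and 10.2 CPM against at most 2.52 CPM in any other library (ratio 8.71, log2 difference 3.22, SE 0.18, adjusted p = 1.668e-15). Slc4a2, the widely expressed chloride-bicarbonate exchanger, varied little, with means from 46.2 to 73.5 CPM. Slc4a10 reached 1.35 to 2.57 CPM in the testis and 0.656 to 1.65 CPM in the corpus, and was specific to the testis (ratio 7.88, adjusted p = 9.305e-13). Slc4a1, the anion exchanger of red blood cells, had 44 counts over the 4 vas deferens libraries and at most 15 over those of any other region. The vas deferens also held the most red cell marker RNA, with a sum of 6 genes of 87.0 to 156 CPM against 9.16 to 82.8 CPM elsewhere, and its part in the Slc4a1 counts was not tested.

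**Figure D2:**
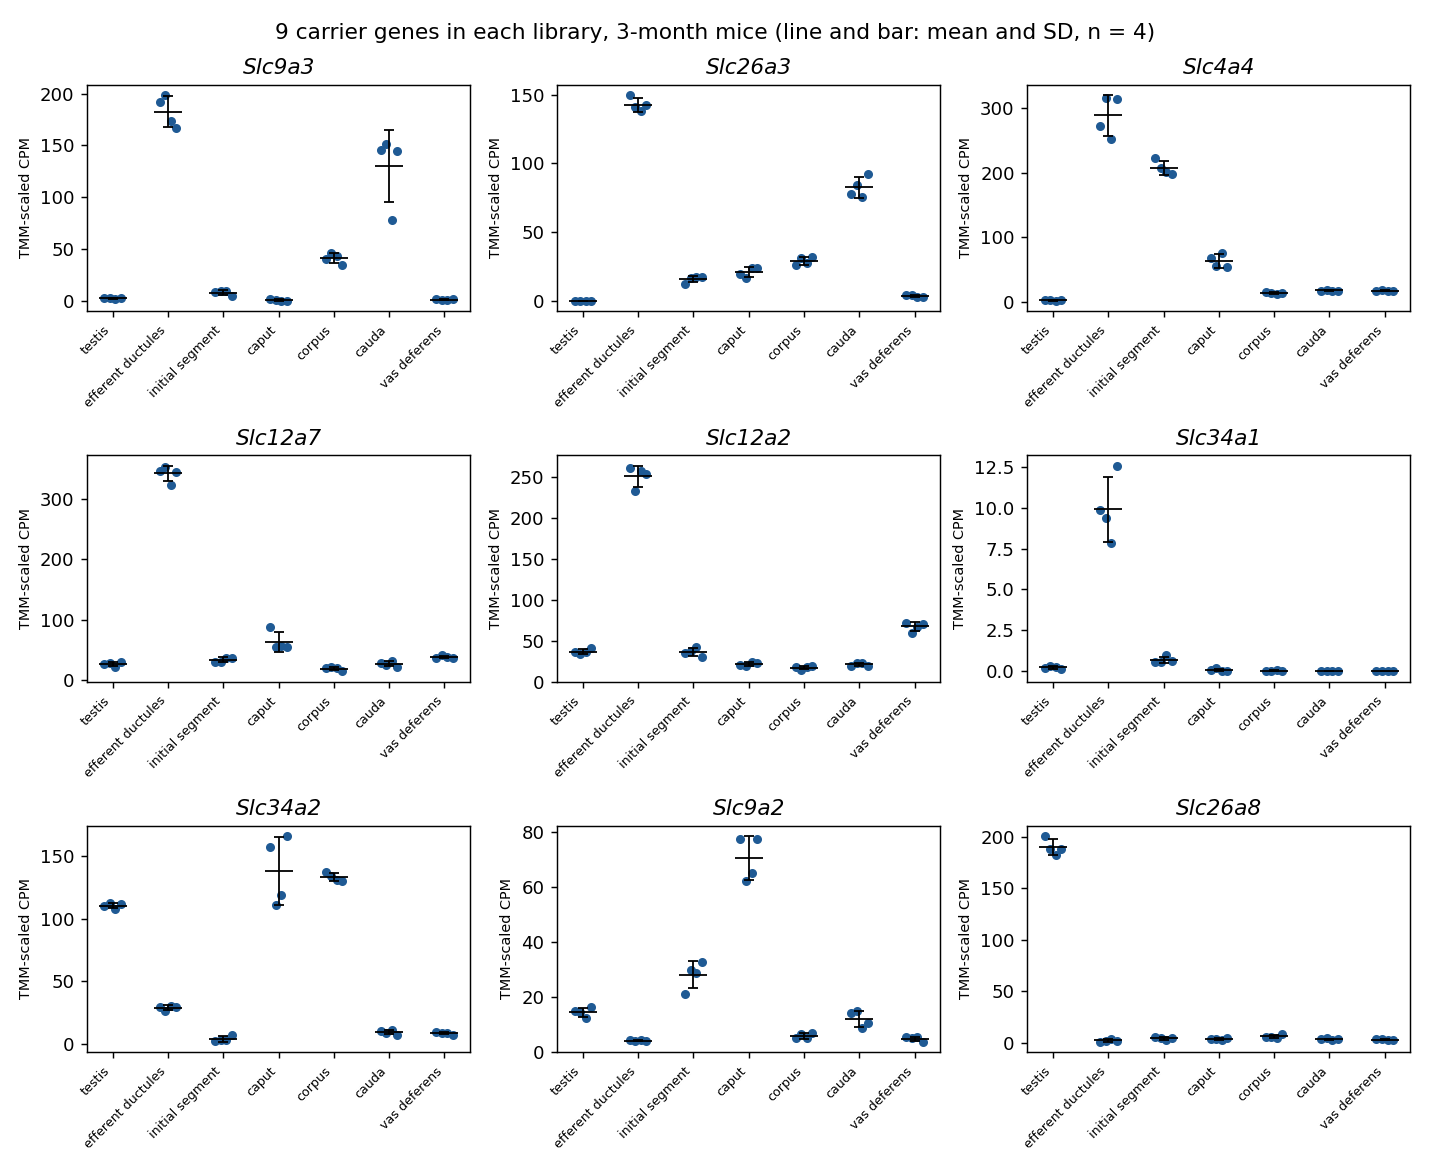
TMM-scaled CPM (linear axis) of Slc9a3, Slc26a3, Slc4a4, Slc12a7, Slc12a2, Slc34a1, Slc34a2, Slc9a2 and Slc26a8 in each of the 28 libraries of 3-month-old mice, by region, with points for libraries, a line for the mean and a bar for the SD of 4. Slc9a3 and Slc26a3 are high in the efferent ductules and again in the cauda, Slc12a7 and Slc12a2 peak in the efferent ductules, and Slc34a2 is high in the testis, caput and corpus and low in the initial segment.

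In the Slc26a family, Slc26a3 followed a course similar to Slc9a3 but with a shallower trough. It had 149.6, 141, 138 and 142 CPM in the efferent ductules and 78.0, 84.3, 75.2 and 92.2 CPM in the cauda. The initial segment had 12.5 to 17.5 CPM, the caput 16.4 to 23.6 CPM, the corpus 26.1 to 32.0 CPM and the vas deferens 2.76 to 4.05 CPM. In the testis it was nearly undetected, with at most 0.157 CPM. The efferent ductules were 5.64 times the mean of the others (log2 difference 4.21, SE 0.09, adjusted p = 7.492e-26) and exceeded the cauda by 0.79 (adjusted p = 5.647e-06). From the cauda to the vas deferens it fell by 4.58 (SE 0.16, adjusted p = 2.236e-19).

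Slc26a8 was far higher in the testis than in the other regions, with 200.3, 188, 182 and 188 CPM against 1.35 to 8.68 CPM in the other 24 libraries (ratio 47.2, log2 difference 5.63, SE 0.12, adjusted p = 3.806e-27). The third efferent ductule library, which held more germ cell marker RNA than its 3 partners, had 4.16 CPM against 1.35 to 2.08 CPM in them. Slc26a7, a chloride carrier of kidney and stomach, was called testis-specific with 17.6, 19.8, 20.8 and 21.5 CPM. Its level in the cauda was 15.9, 14.8, 8.57 and 19.0 CPM and in the initial segment 7.13 to 10.3 CPM, so the ratio was 4.15, and the testis did not differ from the cauda beyond the spread (adjusted p = 0.1987). Without the third cauda library the ratio fell under 4 (log2 difference 3.31, adjusted p = 3.927e-16).

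Slc26a10 was highest in the testis (4.81 to 5.92 CPM, ratio 4.42, log2 difference 2.68, SE 0.19, adjusted p = 7.805e-14), followed by the caput (1.801 to 4.25 CPM). Its exons overlap those of B4galnt1 on the opposite strand, and the strand setting of the counting is not given, so reads of these genes cannot be told apart. Slc26a9, a chloride channel of epithelia, was specific to the efferent ductules with 3.24, 2.96, 2.84 and 3.24 CPM against 1.09 to 1.71 CPM in the initial segment (ratio 9.38, adjusted p = 2.56e-14). Slc26a1, a sulphate carrier, had 96 counts over the 4 efferent ductule libraries, against 0 to 31 over those of other regions (ratio 6.77, adjusted p = 4.387e-09). Slc26a4, the iodide and chloride exchanger pendrin, had 40 counts over the testis libraries against 0 to 15 elsewhere (ratio 6.87, adjusted p = 1.384e-05). Slc26a5, the motor protein prestin of hair cells, was called in the corpus on 8 counts over 3 libraries, and the call was lost without replicate 3 (adjusted p = 0.1259) or replicate 4 (adjusted p = 0.0635). Without replicate 2 (adjusted p = 0.0429) or with other scalings its ratio fell under 4. Slc26a6 was low and nearly level, with means of 2.23 to 5.28 CPM.

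The cation-chloride cotransporters were led by a pair in the efferent ductules. Slc12a7, which lets potassium and chloride leave the cell, had 346, 353, 324 and 345 CPM there against 14.3 to 87.4 CPM in the other 24 libraries (ratio 9.99, log2 difference 3.43, SE 0.08, adjusted p = 7.9e-25). Slc12a2, which brings sodium, potassium and chloride into the cell, had 262, 233, 257 and 254 CPM there (ratio 7.54, log2 difference 3.08, SE 0.06, adjusted p = 3.47e-26). The vas deferens followed with 59.6 to 72.0 CPM, and the other regions had 14.1 to 42.6 CPM. At the efferent ductule to initial segment border Slc12a7 fell by 3.36 (SE 0.15, adjusted p = 7.795e-18) and Slc12a2 by 2.79 (SE 0.11, adjusted p = 7.464e-19).

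Slc12a5, the potassium-chloride cotransporter of neurons, was specific to the testis with 29.4, 25.5, 26.9 and 29.8 CPM against 0.459 to 4.66 CPM in all other libraries (ratio 13.02, log2 difference 3.90, SE 0.15, adjusted p = 2.531e-20). Slc12a1, the sodium-potassium-chloride cotransporter of the thick ascending limb, had 84 counts over the 4 testis libraries and 0 or 1 over those of each other region. Slc12a3, the thiazide-sensitive carrier of the distal tubule, was called in the caput with 6.97, 4.66, 2.93 and 5.04 CPM against 3.04 to 3.43 CPM in the testis (ratio 4.32, adjusted p = 1.503e-10). That ratio fell under 4 without replicate 1 (log2 difference 2.32, adjusted p = 1.105e-06) or replicate 4 (2.41, adjusted p = 1.472e-07), with DESeq2's size factors or library size, and in one fit of 56 libraries.

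The phosphate carriers peaked in different regions. Slc34a1 had 9.84, 9.37, 7.85 and 12.6 CPM in the efferent ductules and 0.519 to 0.977 CPM in the initial segment, with 0 counts in the 4 cauda and 4 vas deferens libraries (ratio 62.6, log2 difference 7.76, SE 0.24, adjusted p = 8.958e-19). Slc34a2, the phosphate carrier of lung and intestine, had 110.1, 113, 108 and 111 CPM in the testis, 157, 111, 119 and 166 CPM in the caput and 137, 134, 131 and 130.4 CPM in the corpus. No pair of these 3 regions passed in the fit (caput and corpus adjusted p = 0.8859, corpus and testis 0.1567, caput and testis 0.0865). All corpus libraries were nevertheless above all testis libraries. Between the testis and the caput, the efferent ductules had 26.2 to 29.7 CPM and the initial segment 2.15 to 7.27 CPM. From the initial segment to the caput Slc34a2 rose by 5.17 on the log2 scale (SE 0.22, adjusted p = 2.933e-17), and from the corpus to the cauda it fell by 3.86 (SE 0.20, adjusted p = 2.991e-15). Slc34a3 had 10 counts over the 4 testis libraries and at most 1 over those of any other region.

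Among the sodium-coupled Slc5a carriers, Slc5a3 was the most abundant. It had 535, 642, 452 and 518 CPM in the initial segment, above the caput (229 to 292 CPM) by 1.05 on the log2 scale (adjusted p = 4.775e-08). The caput, corpus, cauda and vas deferens did not differ from their neighbours in order beyond the spread (adjusted p = 0.1746, 0.602 and 0.9124). Slc5a9, a carrier of mannose and glucose, was specific to the cauda with 57.4, 57.4, 21.6 and 44.1 CPM, against 13.6 to 17.1 CPM in the efferent ductules and 0.316 to 1.09 CPM in the corpus (ratio 11.1, log2 difference 4.30, SE 0.17, adjusted p = 7.684e-19). The low value again came from the third cauda library. Slc5a8, a monocarboxylate carrier, was called in the vas deferens with 4.68, 5.14, 6.83 and 7.20 CPM (ratio 4.44, adjusted p = 2.159e-14), where the efferent ductules had 4.06 to 5.64 CPM (adjusted p = 0.337 between the pair). Its ratio fell under 4 without replicate 4 (log2 difference 3.35, adjusted p = 4.347e-10).

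Low counts lay behind the other Slc5a calls. Slc5a1, the glucose carrier of the small intestine, had 46 counts over the 4 efferent ductule libraries and at most 8 over those of any other region. Slc5a11, a myo-inositol carrier, had 32 there and at most 4 elsewhere, and Slc5a7, the choline carrier of nerve endings, had 14 there and at most 3 elsewhere, with an adjusted p of 0.0987 by DESeq2. Slc5a2, the glucose carrier of the proximal tubule, had 32 counts over the caput libraries, 28 over the efferent ductules and 23 over the testis, and the caput call was lost without replicate 2 or replicate 4, since the ratio fell under 4 (adjusted p = 5.482e-04 and 1.821e-04), as it did under the same settings as for Slc12a3. Slc5a12 was called in the testis on 9 counts, 8 of them in the first library, and without replicate 1 or replicate 3 it had too few counts to be tested. Slc5a5, the iodide carrier of the thyroid, had means of 0.385 to 1.57 CPM.

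A further 10 carriers were specific to no region, and they are named here whatever their values. Slc26a2, a sulphate carrier needed for cartilage, had means from 27.3 CPM in the efferent ductules to 161 CPM in the cauda. Slc12a4, a potassium-chloride cotransporter, had 5.95 CPM in the testis and 46.7 CPM in the efferent ductules, and Slc12a9 had 3.97 and 32.4 CPM in the same regions. Slc9a7, an exchanger of the Golgi, had means from 0.842 CPM in the testis to 26.4 CPM in the vas deferens. Means ran from 3.62 to 14.8 CPM for the vitamin carrier Slc5a6, from 2.32 to 14.7 CPM for Slc9a9, from 3.56 to 13.2 CPM for Slc26a11 and from 0.602 to 3.64 CPM for Slc12a8. Slc4a9 and Slc5a10 stayed under 1 CPM in every region.

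The efferent ductule libraries also had higher levels of adipocyte markers than the other regions. The sum of 4 such genes (Adipoq, Plin1, Cidec and Lep) was 161 to 303 CPM there and at most 76.7 CPM in any other library. Of 4 endothelial markers, Kdr was higher there (157 to 227 CPM, at most 113 CPM elsewhere), while Pecam1 (39.6 to 40.3 CPM) and Tek (8.60 to 11.4 CPM) were below their levels in the initial segment and vas deferens, and Cdh5 overlapped with the initial segment. Of 4 multiciliated cell markers, Foxj1 (405 to 501 CPM) and Dnah5 (511 to 548 CPM) were highest there, and Ccdc39 and Rsph1 were highest in the testis. Umod, a marker of the kidney tubule, had 4.82 to 10.8 CPM there, 0.951 to 2.60 CPM in the initial segment and at most 0.432 CPM in the other regions. The part of these cells in the 11 efferent ductule calls was not tested. Clear cell markers were nearly absent there, with a sum of 0.366 to 0.757 CPM, against 95.8 CPM or more in every library of the initial segment, caput, corpus and cauda.

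Changes from one region to the next were called at an adjusted p under 0.05 and at least 1.5-fold. From the testis to the efferent ductules 23 carriers rose and 20 fell, where 32.5% and 38.7% of all genes did. From the efferent ductules to the initial segment 10 rose and 20 fell (background 15.1% and 21.1%), and the median log2 change of the carriers was -0.65, against -0.06 over all genes. The carriers that fell there included Slc9a3, Slc26a3, Slc12a7, Slc12a2, Slc34a1 and Slc34a2. From the initial segment to the caput 15 rose and 10 fell (background 12.1% and 9.05%). From the caput to the corpus 12 rose and 15 fell (12.5% and 13.8%), from the corpus to the cauda 12 rose and 9 fell (10.4% and 7.91%), and from the cauda to the vas deferens 10 rose and 10 fell (11.1% and 17.8%). With library size as the only scaling the counts of higher and lower carriers were 7 and 28 from the efferent ductules to the initial segment (all genes 3165 and 9960, in place of 5206 and 7289), 11 and 10 from the initial segment to the caput (3059 and 3629, in place of 4173 and 3120), 15 and 5 from the corpus to the cauda (4399 and 1874, in place of 3599 and 2726) and 13 and 8 from the cauda to the vas deferens (5657 and 4530, in place of 3817 and 6130).

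A list of 32 partner genes of these carriers was measured beside them, namely subunits of the sodium-potassium ATPase, scaffolds of Slc9a3, the chloride channel Cftr, WNK and related kinases, carbonic anhydrases, other phosphate and sodium-hydrogen carriers and the soluble adenylyl cyclase Adcy10. In the testis 6 were specific, in the efferent ductules 4, in the cauda 2, in the initial segment, caput and corpus 1 each and in the vas deferens 0. Atp1b1, a beta subunit of the ATPase, had 533, 555, 469 and 576 CPM in the efferent ductules, 5.59 times the mean of the others (adjusted p = 3.671e-26). Fxyd2, a regulator of the ATPase known from kidney, had 27.4, 40.2, 20.8 and 38.8 CPM there (ratio 12.7, adjusted p = 1.611e-20). The testis-specific ones included Atp1a4, the sperm form of the ATPase (624 to 712 CPM, ratio 78.0), and Adcy10 (461 to 503 CPM, ratio 159).

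Cftr was specific to the initial segment with 245, 220.3, 220.5 and 184 CPM (ratio 7.44, adjusted p = 1.078e-27), a region with 0 specific carriers. Car4, a carbonic anhydrase at the cell surface, was specific to the corpus with 701, 551, 515 and 622 CPM against at most 23.1 CPM in any other library (ratio 213, adjusted p = 2.363e-25). Car12 was specific to the caput with 91.1 to 97.7 CPM (ratio 6.67, adjusted p = 4.161e-18). Slc9a3r1, a scaffold that binds Slc9a3, was specific to the cauda with 636, 623, 375 and 574 CPM (ratio 4.83, adjusted p = 5.508e-22). The lower value of 375 CPM and the lower Slc9a3 both belong to the third cauda library.

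For age, each region was fitted on its own 8 libraries, and levels in the following are CPM on that region's own scale, so they differ slightly from those above. A change was called at an adjusted p under 0.05 and at least 1.5-fold. Over the 7 regions 12 changes of 9 carriers were called. The testis had 0 calls among 51 carriers tested, where 0.173% of all genes rose and 0.0799% fell. The smallest adjusted p of a carrier there was 0.3713 in edgeR's test. DESeq2 called 0 there. The cauda had 0 among 42 (background 0.07% and 0.0583%), with a smallest adjusted p of 0.2879 in edgeR's test, and DESeq2 called 1. Median log2 changes of the carriers lay between -0.12 in the cauda and 0.13 in the caput, against -0.04 to 0.02 over all genes.

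In the efferent ductules 1 of 47 carriers rose and 1 fell, where 2.82% and 1.89% of all genes did. With library size as the only scaling 1 rose and 5 fell, with 346 and 3353 of all genes in place of 732 and 490. Slc26a3 had 167, 156, 157 and 161 CPM at 3 months and 128, 80.8, 90.0 and 124 CPM at 21 months (log2 change -0.60, SE 0.15, adjusted p = 0.0381). The ages did not overlap, and the lower values at 21 months, 80.8 and 90.0 CPM, belong to the second and the third libraries, which held the initial segment markers. Slc34a1 had 10.96, 10.4, 8.96 and 14.2 CPM at 3 months and 19.9, 18.4, 16.9 and 15.2 CPM at 21 months (log2 change 0.66, SE 0.16, adjusted p = 0.0353). Without these 2 libraries the change of Slc26a3 was -0.33 (adjusted p = 0.004391), under 1.5-fold, and that of Slc34a1 was 0.67 (adjusted p = 0.0173). By DESeq2 Slc26a3 changed by -0.58 (adjusted p = 0.00749), also under 1.5-fold. Slc34a1 changed by 0.33 with library size only (adjusted p = 0.2026) and by 0.59 in one fit of 56 libraries (adjusted p = 0.1825). Each call was lost when 1 of several single libraries was left out. For Slc26a3 these were each of the 4 young libraries (adjusted p = 0.0791 to 0.114) and the second (0.0625) and the third (0.0721) old ones, and for Slc34a1 the first (0.1034), the second (0.0898) and the third (0.1034) young libraries and the first (0.0552), the second (0.0552) and the third (0.0538) old ones. Slc5a3 fell by 0.51 on the log2 scale with an adjusted p of 0.0174, from a range of 156 to 185 CPM to one of 109 to 126 CPM, which was under 1.5-fold. The count of calls was 0 without the first, the second or the third young or the second or the third old library, 1 without the fourth young and 4 without the fourth old one.

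Gm42418 took 1.27 to 3.29% of the counts in the young efferent ductule libraries and 4.93 to 22.2% in the old, with no overlap, and the first and the fourth old libraries had the lowest totals (11442133 and 11125279 counts). With Gm42418 left out, the changes were -0.60 for Slc26a3 (adjusted p = 0.0381) and 0.66 for Slc34a1 (adjusted p = 0.0353), and 2 carriers were called. Marker RNA of other cells also moved with age in the efferent ductules. Of 4 T cell markers 3 rose (summed level 1.48 to 2.23 CPM at 3 months and 5.49 to 7.67 CPM at 21 months), as did 2 of 4 macrophage markers (137 to 153 CPM and 220.1 to 288 CPM) and 4 of 6 red cell markers (19.6 to 29.4 CPM and 43.0 to 135 CPM). The part of these cells in the changes was not tested. Among the partners, Cftr fell (77.8 ± 5.08 to 46.1 ± 5.26 CPM, log2 change -0.76, adjusted p = 0.007172), and Fxyd2 rose (35.7 ± 10.2 to 91.9 ± 22.3 CPM, adjusted p = 0.0109).

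**Figure D3:**
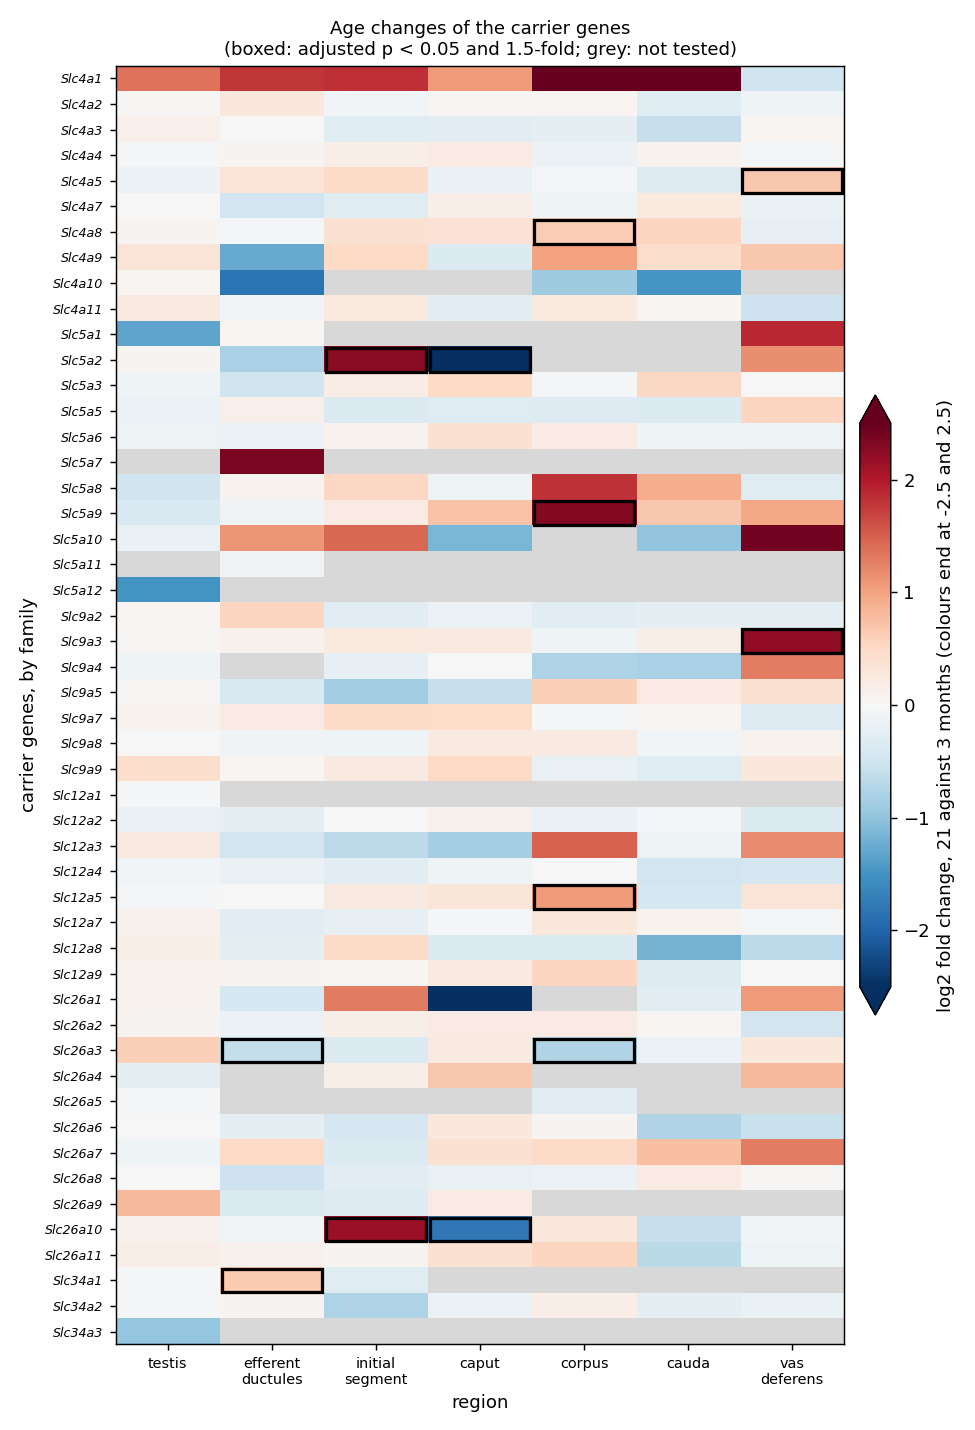
Log2 change from 3 to 21 months (colour) of 50 of the 53 carriers (rows) in each region (columns), fitted with edgeR on the 8 libraries of the region. Boxes mark the 12 calls (adjusted p under 0.05 and at least 1.5-fold), and grey cells were not tested because of low counts. The testis and cauda columns hold no box, and Slc26a10 is boxed with opposite colours in the initial segment and caput.

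In the initial segment 2 of 45 carriers rose and 0 fell (background 2.75% and 2.21%). Slc26a10 had 1.87, 1.73, 1.19 and 1.64 CPM at 3 months and 8.06, 5.97, 8.999 and 5.65 CPM at 21 months (log2 change 2.16, SE 0.22, adjusted p = 7.449e-05). In the caput 0 of 44 rose and 2 fell (background 1.88% and 3.83%), and Slc26a10 was one of them, with 1.59, 2.43, 3.94 and 3.91 CPM at 3 months and 0.759, 0.880, 0.710 and 1.13 CPM at 21 months (log2 change -1.78, SE 0.33, adjusted p = 0.007444). The change thus had opposite signs in neighbouring regions, with no overlap between the ages in either, and both calls held without each of the 8 libraries of the region in turn. As said above, reads of Slc26a10 and of B4galnt1 on the opposite strand cannot be told apart, so either gene may have changed. Caput markers in the initial segment (58.4 to 653 CPM at 3 months, 75.9 to 277 CPM at 21 months) and initial segment markers in the caput (1028 to 1892 CPM and 1037 to 1891 CPM) overlapped between the ages.

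Slc5a2 moved the same way at very low levels. It had 9 counts over the 4 initial segment libraries at 3 months and 41 at 21 months (log2 change 2.26, SE 0.56, adjusted p = 0.0258), and 32 and 4 counts in the caput (log2 change -3.25, SE 0.88, adjusted p = 0.0394). The initial segment call was lost without 5 of the 8 libraries in turn, namely the first (adjusted p = 0.0587), the second (0.0715) and the fourth (0.0580) young and the first (0.0859) and the fourth (0.0602) old ones. In one fit of 56 libraries its adjusted p was 0.0691. The caput call was lost without the second (0.0824), the third (0.0977) and the fourth (0.0582) young and the second (0.0982), the third (0.1104) and the fourth (0.1001) old ones. Exons of Slc5a2 overlap BC017158 on the opposite strand. Slc5a3 rose in the caput by 0.50 (adjusted p = 0.0119), from a range of 217 to 271 CPM to one of 317 to 352 CPM, under 1.5-fold. Without the first young caput library 6 carriers were called there. Germ cell markers fell in both regions, 4 of 6 in the initial segment (19.6 to 71.7 CPM young and 5.78 to 16.4 CPM old) and 2 of 6 in the caput (50.4 to 79.0 CPM young and 32.9 to 42.4 CPM old), and their part was not tested.

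In the corpus 3 of 41 carriers rose and 1 fell (background 1.11% and 0.92%). Slc5a9 had 0.297, 0.866, 0.659 and 0.261 CPM at 3 months and 2.79, 2.29, 2.59 and 2.94 CPM at 21 months (log2 change 2.30, SE 0.33, adjusted p = 9.388e-04). Slc12a5 had 2.498, 3.70, 2.86 and 2.87 CPM and then 6.21, 4.39, 6.35 and 7.83 CPM (log2 change 1.06, SE 0.20, adjusted p = 0.00849). Slc26a3 fell, from 20.6, 24.7, 21.6 and 26.4 CPM to 11.6, 15.3, 16.7 and 12.3 CPM (log2 change -0.74, SE 0.13, adjusted p = 0.005297). These changes left no overlap between the ages and held without each of the 8 libraries in turn, although Slc12a5 (adjusted p = 0.0979) and Slc26a3 (0.111) passed no longer in one fit of all 56 libraries. The cauda marker Wfdc9, a gene of the region where Slc5a9 is highest, was 32.1 to 41.1 CPM at 3 months and 23.9 to 31.1 CPM at 21 months in the corpus. Wfdc9 is not confined to the cauda. On the common scale of the 3-month libraries it had 40.2 to 52.1 CPM in the corpus and 90.9 to 140 CPM in the cauda. Whether the old corpus libraries held cauda tissue was not tested.

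Slc4a8 rose in the corpus from 25.8, 43.1, 33.8 and 32.9 CPM to 66.7, 42.3, 45.4 and 55.0 CPM, with overlap of the ages (log2 change 0.63, SE 0.15, adjusted p = 0.0336). The call was lost without the first (adjusted p = 0.0560), the third (0.0986) and the fourth (0.0545) young and the first (0.1132) and the fourth (0.0817) old libraries, and with library size only (log2 change 0.49, adjusted p = 0.2795). In the corpus 4 of 6 red cell markers rose (52.7 to 66.1 CPM and 79.5 to 335 CPM), and 1 of 4 clear cell markers fell (75.6 to 95.3 CPM and 63.3 to 70.1 CPM). Slc4a1 had 80 counts in the old corpus libraries, 70 of them in the fourth, which had the highest red cell marker level of 335 CPM, and its change was not called (adjusted p = 0.1933).

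**Figure D4:**
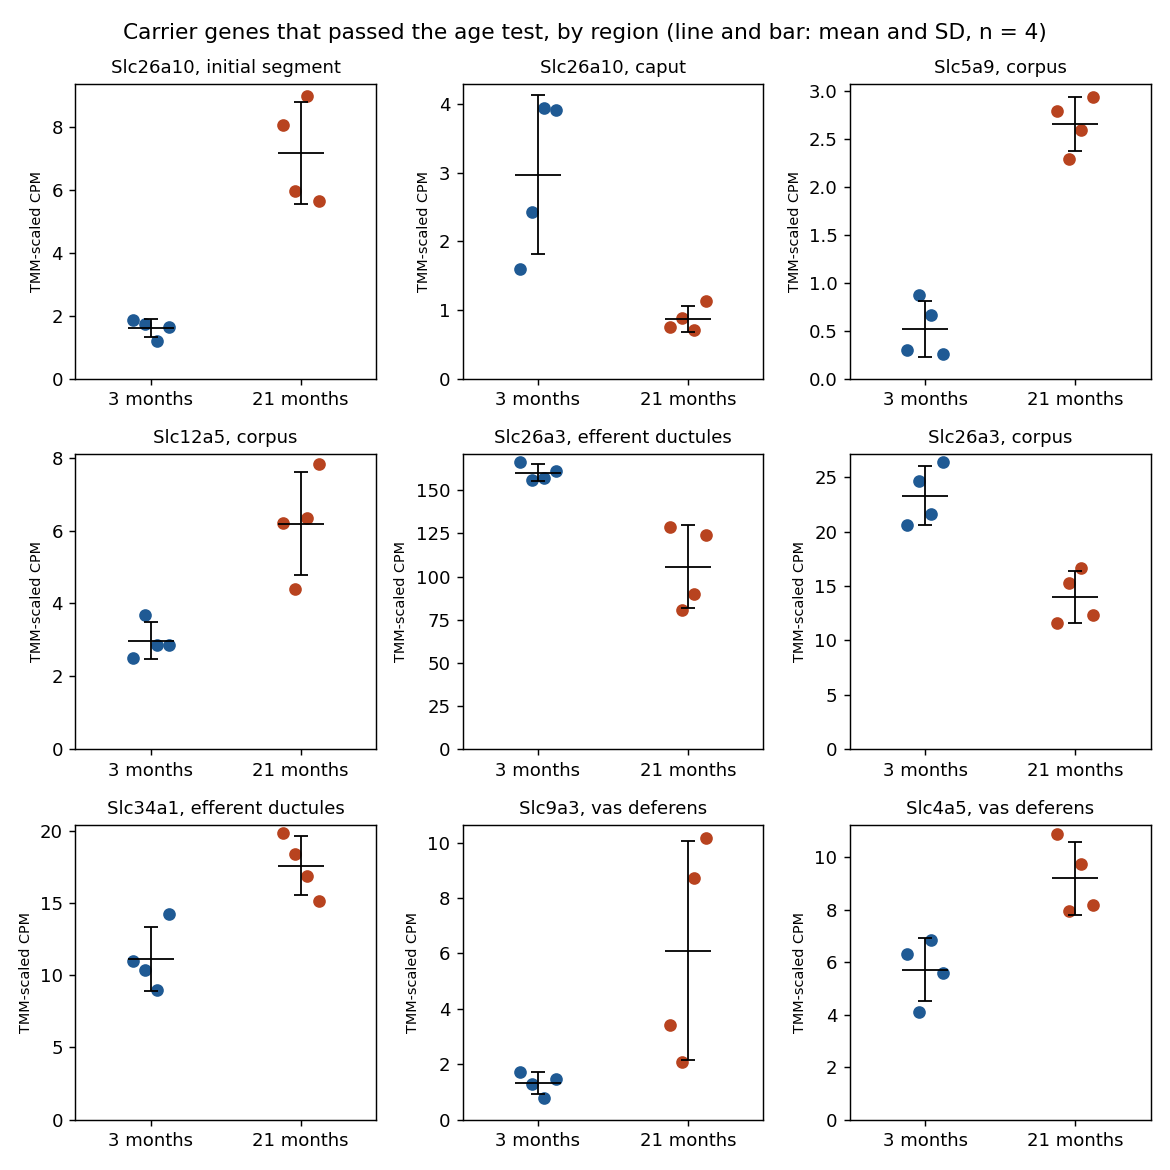
CPM on each region's own scale in the 4 young (3 months) and 4 old (21 months) libraries for 9 of the 12 called changes, with points for libraries, lines for the means and bars for the SD. The ages are apart in every panel shown, and at 21 months Slc9a3 in the vas deferens spans 2.08 to 10.2 CPM.

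In the vas deferens 2 of 44 carriers rose and 0 fell, where 7.78% and 3.22% of all genes did. Slc9a3 had 1.71, 1.29, 0.780 and 1.46 CPM at 3 months and 3.43, 2.08, 8.73 and 10.2 CPM at 21 months (log2 change 2.21, SE 0.48, adjusted p = 0.0101). The cauda marker Wfdc9 was 2.92 to 5.04 CPM in the young and 5.48, 6.59, 12.4 and 27.5 CPM in the old libraries, so the same 2 libraries were highest for both genes. Slc4a5 had 6.31, 4.10, 6.84 and 5.59 CPM and then 10.9, 7.95, 9.73 and 8.18 CPM (log2 change 0.68, SE 0.18, adjusted p = 0.0244). It was lost without the second (0.0524) or the fourth (0.0673) young or the first (0.0602) or the third (0.0555) old library. With the fourth old library as the only old one, the log2 change of Slc4a5 was 0.51, under 1.5-fold. Without the third and the fourth old libraries the change of Slc9a3 was 1.06 (adjusted p = 0.0433) and that of Slc4a5 0.71 (adjusted p = 0.0306). Without the second old library 4 carriers were called, and without the third old or the fourth young one 1 was.

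Further carriers of the vas deferens passed the adjusted p but not the fold change, among them Slc12a4 (-0.42 on the log2 scale), Slc9a7 (-0.31) and Slc26a2 (-0.46), which were named after their values were seen. Seminal vesicle markers were 0.789 to 2.16 CPM in the young vas deferens and 523, 2058, 845 and 13.1 CPM in the old, with 3 of 3 tested markers higher. T cell markers rose, 4 of 4, from a range of 2.04 to 3.48 CPM to one of 10.6 to 29.5 CPM. The part of these cells in the changes was not tested. Of the partners, Slc9a3r1 rose (116 ± 12.98 to 218 ± 106 CPM, adjusted p = 0.0349), as did Wnk2, Fxyd3 and Car2.

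Whether an age effect differed among the 7 regions was tested in one fit of the 56 libraries. It did so for 13 of the 53 carriers, against a background of 20.2% of all genes. Among them were Slc26a10 (adjusted p = 8.466e-07), Slc5a3 (5.04e-04), Slc5a2 (0.001543), Slc5a9 (0.002273), Slc4a7 (0.0108), Slc12a3 (0.0132), Slc26a1 (0.0161), Slc9a3 (0.0216), Slc26a3 (0.0277), Slc26a2 (0.0315), Slc9a5 (0.0336) and Slc4a8 (0.0402). Without all libraries of replicate 1, 2, 3 or 4 the count was 8, 9, 7 or 6.

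The region of the highest mean was the same at both ages for 35 of the 53 carriers, and for 29 of the 42 that reached 1 CPM at 3 months. The share over all genes was not taken, and Slc5a12 had too few counts at 21 months to be ranked. Some switches were between regions nearly level at 3 months. There the ratio of the highest to the second mean was 1.01 for Slc9a8 and 1.04 for Slc34a2. On the scale of the 28 old libraries Slc9a3 had 189.6 ± 43.2 CPM in the efferent ductules, 0.689 ± 0.412 CPM in the caput and 137 ± 14.6 CPM in the cauda. Slc34a2 had 103 ± 0.974 CPM in the testis, 2.14 ± 1.23 CPM in the initial segment, 121 ± 7.497 CPM in the caput and 147 ± 10.6 CPM in the corpus. Slc26a8 had 182 ± 6.95 CPM in the testis and at most 5.74 ± 0.526 CPM elsewhere. The highest region of Slc26a10 moved from the testis to the initial segment (7.13 ± 1.62 CPM against 5.38 ± 0.365 CPM in the testis).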

How the data were processed

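RNA-seq was done on 7 regions of the male reproductive tract of C57BL/6 mice at 3 and 21 months, with 4 libraries per group. According to the methods and labels, stranded total RNA libraries (Illumina TruSeq) were sequenced as paired-end reads, and the notes of the submitters name cutadapt, HISAT2 and HTSeq with the build mm10. Versions, annotation release, counting mode and strand setting are not given in the sources used here, and for the RNA the methods name RNeasy and the labels TRIzol. The authors deposited the values as whole-number read counts per Ensembl gene, not normalized. Totals were 11125279 to 20561967 counts per library, which limits the precision for genes with few counts, and counts of single genes carry counting error beside the spread between libraries.

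Groups came from the sample titles. GENCODE M21 gave symbols, positions and exon lengths. Genes with 10 or more counts in total entered the fits of edgeR 4.0.16 (R 4.3.3), made with TMM scaling and its quasi-likelihood F-test, and p-values were adjusted by the Benjamini-Hochberg method over all genes tested. Regions were compared in the 28 libraries of 3-month-old mice, the ages in the 8 libraries of each region, and the difference of the age effect among regions in all 56 libraries. The standard error (SE) is that of a fitted log2 change. Alternatives were DESeq2 1.42.0, its size factors in edgeR, library size only, filterByExpr, no filter, one fit of 56 libraries, a comparison with each region in turn, unadjusted p, the replicate number as a block, and leaving out single libraries (ages) or all libraries of a replicate number (regions). Fits without the libraries that stood apart and without Gm42418 were added after the data had been seen. The fits were tested on simulated counts with known changes.

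The replicate numbers are not stated to mark a mouse. How far log2 CPM lay from the mean of its group was correlated between libraries with the same number, and all 4 correlations were above 0.1 for 1 of 21 pairs of regions at 3 months, the corpus and cauda (0.1511, 0.1147, 0.1537 and 0.2365), for 0 of 21 at 21 months and for 0 of 7 between the ages. The caput and corpus at 3 months had 0.4054, 0.0899, 0.153 and 0.1568. No libraries of a group agreed within sampling noise (84 pairs, lowest chi-square 3.03 per degree of freedom).

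The carriers follow from a rule on symbols, and this rule, the partner list and the marker lists were set with earlier results of these data known. The carriers named in the text are those specific to a region, those called with age, the 3 with the highest CPM per kb in each region and a list of well-studied members of each family, and of other genes only partners and markers are named. Some genes that the rule names are not reported here. Promoter sequences are from RefSeq (GRCm38.p6), matched by symbol. Other data of the study were not analysed here.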

Additional observations from a re-analysis of the deposited data

Results flagged for a closer look

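Dixon's criterion was applied to 222 groups of 4 libraries with a mean of at least 1 CPM, namely every region at 3 months for the carriers reported here and the old libraries of the called age changes. In 22 of them 1 library was far from the other 3, where chance gives about 1 in 20 groups. The values in brackets are the gap to the nearest library as a share of the group's whole range. In the cauda the third library was the lowest for Slc9a3 (0.9055) and the highest for Slc9a9 (0.9844), Slc26a6 (0.9620) and Slc26a11 (0.9025). The second cauda library was the highest for Slc12a5 (0.8677), and the first for Slc9a5 (0.8478). In the vas deferens the second library was the lowest for Slc12a4 (0.8520), Slc12a9 (0.8775) and Slc26a6 (0.8724) and the highest for Slc26a10 (0.8357). In the caput the first library was the highest for Slc12a7 (0.9267) and Slc12a9 (0.9033), and the third for Slc26a7 (0.8649). In the initial segment the fourth library was the lowest for Slc26a7 (0.8840) and Slc26a11 (0.8775), the first the lowest for Slc26a3 (0.8619) and the second the highest for Slc26a9 (0.8378). In the efferent ductules the second library was the lowest for Slc34a2 (0.9552) and the highest for Slc4a8 (0.8820), and the first the lowest for Slc26a2 (0.8490). For Slc4a3 the fourth library was the highest of the testis (0.8294) and the lowest of the corpus (0.8761). For 13 carriers the change with age differed among the 7 regions in the fit of 56 libraries by edgeR's quasi-likelihood test, and 12 of them are given here. The adjusted p was 8.466e-07 for Slc26a10, which rose in the initial segment and fell in the caput. It was 5.04e-04 for Slc5a3, which had log2 changes of -0.51 in the efferent ductules and 0.50 in the caput. It was 0.001543 for Slc5a2, 0.002273 for Slc5a9, 0.01079 for Slc4a7 and 0.01323 for Slc12a3. It was 0.01606 for Slc26a1, 0.02163 for Slc9a3, 0.0277 for Slc26a3, 0.03149 for Slc26a2, 0.03356 for Slc9a5 and 0.04017 for Slc4a8.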

How the results depend on the processing

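No change or difference of a named carrier reversed under any alternative run. For carriers specific to a region, the requirement of 4-fold over each other region in turn left 5 of 10 in the testis, 4 of 11 in the efferent ductules, 1 of 4 in the caput and 0 in the corpus, cauda and vas deferens. The size factors of DESeq2 in edgeR gave 2 in the caput and 1 in the corpus, library size only gave 2 in the caput, 0 in the corpus and 4 in the vas deferens, and one fit of 56 libraries gave 2 in the caput. In the corpus DESeq2, filterByExpr and no filter on low counts each gave 1, and DESeq2 gave no adjusted p for Slc26a5, Slc34a3 and Slc5a12. Leaving out the libraries of 1 replicate number gave 0 to 3 in the vas deferens, 1 to 2 in both cauda and corpus, 3 to 5 in the caput, 11 in the efferent ductules and 8 to 9 in the testis. The total of carriers changed from region to region stayed within 1.5 times under every alternative, while its split into higher and lower did not with library size only (given with the counts above), and DESeq2's size factors moved the median log2 change of all genes from -0.08 to -0.49 from the testis to the efferent ductules, and library size only moved it from -0.06 to -0.44 at the next border and from 0 to 0.17 from corpus to cauda. For age, unadjusted p with the 1.5-fold limit kept gave 7 carriers in the vas deferens, 6 in the cauda, 9 in the corpus and 5 in the caput. It gave 4 in both initial segment and efferent ductules and 1 in the testis. The share of all genes under this setting is not given here, so these counts show no excess. In the efferent ductules library size only gave 6 (median log2 change of all genes -0.38) and DESeq2's size factors gave 1. Without the 2 old efferent ductule libraries that held initial segment markers 4 were called. In the corpus library size only turned the split of all genes from 275 higher and 229 lower to 154 and 350 (carriers 3 and 1 in both), and in the caput it moved the median of all genes from -0.01 to 0.19. filterByExpr gave 1 in both caput and initial segment, no filter gave 4 in the caput, one fit of 56 libraries gave 1 in the initial segment and 2 for the corpus, and DESeq2 gave 1 in the cauda. In the vas deferens 5 were called without the third and the fourth old libraries and 8 with the fourth as the only old one, where the spread of old libraries is not measured. Leaving out single libraries gave 1 to 4 in the vas deferens, 3 to 4 in the corpus, 1 to 6 in the caput, 0 to 4 in the efferent ductules and 1 to 2 in the initial segment, and leaving out all libraries of 1 replicate number gave 6 to 9 carriers with an age effect that differed among regions. The causes of these shifts were not tested. With the replicate block the count was 0 in the efferent ductules (Slc26a3 adjusted p = 0.0525, Slc34a1 0.0782) and 1 in the initial segment (Slc5a2 0.0694). From corpus to cauda, the pair of regions with all 4 correlations above 0.1 at 3 months, it was 20 against 21. No other count moved by over 1.5 times with the block. Depth limits the carriers with few counts.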
